A study of Mus musculus with 36 samples.

Results

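The genes described here encode the proteins of the cytosolic ribosome, the particle that translates nuclear messages in the cytoplasm. They were chosen by symbol: names of the form Rpl or Rps followed by a number (with the letters a, l, x or y allowed), together with Rplp0 to Rplp2 and Rpsa, and at least 200 counts summed over the 36 libraries. Of the 24421 genes in the files, 85 symbols had this form and 80 passed the count minimum, 47 of the large 60S subunit and 33 of the small 40S subunit. The 5 that fell short were Rpl3l with 68 counts, Rpl39l with 38, Rpl30 with 16, Rpl10l with 3 and Rpl26 with 0. The members just inside the minimum were Rpl34 with 356 counts, Rps4l with 681 and Rps27 with 747, and the member with most counts was Rpl4 with 165986. Of the counts of Rps27, 548 came from a single aortic baseline library, which is among those set apart below. Without that library Rps27 would have fallen short of the minimum. Rps4l is annotated in GENCODE as a transcribed processed pseudogene, a copy made from a spliced message, so it is a member by its symbol only.

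All libraries came from Apoe ko mice, which lack apolipoprotein E, carry cholesterol-rich lipoproteins in the blood and develop atherosclerosis. 3 cell populations were sorted by flow cytometry: macrophages of the aorta after collagenase digestion, monocytes of the blood and spleen, whose red cells had been lysed, and macrophages of the peritoneal lavage. Each was taken at baseline on chow diet, at the early stage after 1 month of a high cholesterol diet and at the advanced stage after 6 months, giving 9 groups of 4 libraries. The question was how these cells change their gene expression as atheroma begins and advances. No group on chow for 1 or 6 months is among the samples, so diet, time and age cannot be told apart. The age and sex of the mice, and whether each library is a mouse of its own, are not given in the sources used here. The p-values therefore measure only how these samples spread, which may be technical.

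A ribosome holds a single copy of most of its proteins, and cells make these proteins in step with each other. Most of their messages start with a C followed by a run of pyrimidines, the 5′ terminal oligopyrimidine or TOP motif, through which the kinase mTOR and the protein Larp1 hold the messages back from translation when nutrients or growth signals are short. Translation control of this kind changes how much protein is made from a message and need not change the message level, which is what RNA-seq counts. Several of the proteins also have roles outside the ribosome: Rpl5 and Rpl11, with 5S RNA, bind Mdm2 when ribosome assembly fails, and Rpl13a is released in interferon-treated monocytic cells to restrain the translation of inflammatory messages.

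The start of the message, where the TOP motif lies, is shown for members on which the results below turn. RefSeq's annotation of GRCm38.p6, the mm10 assembly, gave start windows for 60 of the 80 members. A C followed by at least 4 pyrimidines, beginning within 5 bases of an annotated start, was found in 29 of the 60 (48.3%), in 21.2% of 27025 genes with a window and in 17 of 68 mitochondrial ribosomal protein genes. With a distance of 10 bases, 36 of the 60 members and 34.4% of all genes held one. The runs were 5 to 20 bases long, with a median of 8. The windows below hold 20 bases before the annotated start and 20 from it, 5′ to 3′ on the gene's strand in mm10, with the pyrimidine run in capitals. Annotated starts can lie some bases from the start that a cell uses, so a window without capitals says only that no such run lay within that distance.
Rplp2, acidic stalk protein, chr7:141447631-141447670, plus strand: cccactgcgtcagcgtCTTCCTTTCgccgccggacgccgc
Rpl12, base of the stalk, chr2:32961692-32961731, plus strand: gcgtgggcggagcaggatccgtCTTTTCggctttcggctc
Rpl13a, chr7:45128726-45128765, minus strand: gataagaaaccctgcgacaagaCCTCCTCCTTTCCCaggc
Rpl27a, chr7:109519175-109519214, plus strand: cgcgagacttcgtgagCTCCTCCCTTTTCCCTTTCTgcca
Rpl22l1, paralogue of Rpl22, chr3:28805488-28805527, plus strand: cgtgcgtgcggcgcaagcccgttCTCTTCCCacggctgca
Rps18, 40S head, chr17:33955646-33955685, minus strand: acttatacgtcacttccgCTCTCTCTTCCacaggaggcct
Rplp0, centre of the stalk, chr5:115559447-115559486, plus strand: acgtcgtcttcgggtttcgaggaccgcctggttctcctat
Rpl41, chr10:128549149-128549188, minus strand: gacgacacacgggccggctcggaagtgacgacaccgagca
Rpl36a, chrX:134585634-134585673, plus strand: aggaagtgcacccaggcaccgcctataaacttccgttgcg

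Of 4 promoter motifs searched on both strands in the 300 bases from 250 before to 50 after the start, ACTTCCGG, the core bound by GABP, was in 18.3% of the members and 4.31% of all genes with a window. AAGATGG, the core of the YY1 motif, was in 16.7% and 7.28%, and GGGCGG, the Sp1 core, in 65.0% and 38.2%. CACGTG, the E-box that Myc can bind, was in 6 of the 60 members and 8.09% of genes. Of the 68 mitochondrial ribosomal protein genes, 17.6% held ACTTCCGG and 19.1% held AAGATGG, so neither core was particular to the members. GGGCGG was in 34 of those 68 genes and CACGTG in 5. These are letters in a window, not sites shown to be bound.

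Totals ran from 5278901 to 14771799 counts per library at baseline and from 942899 to 2628766 at the early and advanced stages. Depth and stage therefore differ together in every comparison with baseline, and counts thinned to the shallowest library are given beside those comparisons. Macrophage markers took 0.915 to 1.36% of counts in the aorta, 0.525 to 0.841% in the peritoneum and 0.176 to 0.280% in monocytes, while markers of peritoneal macrophages took 0.556 to 2.17% in the peritoneum and at most 0.0403% elsewhere. Monocyte markers took 0.648 to 1.2% in the monocytes and at most 0.178% elsewhere. 6 libraries were set apart after the data were seen. They were aorta baseline 3 and 4 and aorta advanced 1, whose mean rank correlations with their own group (0.733, 0.691 and 0.850) were below those of the other libraries of their groups, monocyte advanced 3, with 4.03% of counts in neutrophil markers, and peritoneum early 1 and 2, with 0.972 and 0.556% in peritoneal markers against 1.51% or more in the group's others. Replicates of monocytes and of peritoneal macrophages correlated with a Spearman rho of 0.901 to 0.993 over genes, and those of the aorta with 0.555 to 0.959.

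The members together took 1.52 to 3.20% of counts per library. In monocytes the share was 1.88, 1.94, 1.87 and 1.98% at baseline, 2.72, 2.83, 2.45 and 2.77% at the early stage and 2.28, 2.39, 2.13 and 2.35% at the advanced stage, so that none of the 3 stages overlapped. Their means were 1.92 ± 0.05, 2.69 ± 0.17 and 2.29 ± 0.12% (SD, n = 4 each). In the peritoneum the share was 1.74, 1.83, 1.85 and 2.11% at baseline, 3.20, 2.48, 2.24 and 2.5% at the early stage and 2.61, 2.05, 2.62 and 2.46% at the advanced stage. The early libraries lay above all baseline libraries, and the advanced libraries overlapped with both other stages. In the aorta the share was 1.56, 1.90, 2.18 and 1.71% at baseline, 2.13, 2.05, 1.96 and 1.75% at the early stage and 1.74, 1.52, 1.61 and 1.65% at the advanced stage. There the early libraries lay above the advanced ones, and baseline overlapped with both. Fibroblast markers took 0.0506 to 0.106% of counts in the early and 0.0144 to 0.0389% in the advanced aortic libraries, also without overlap, and their part was not tested. In these sorted bulk samples, fewer cells of a type and less RNA per cell cannot be told apart.

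**Figure D1:**
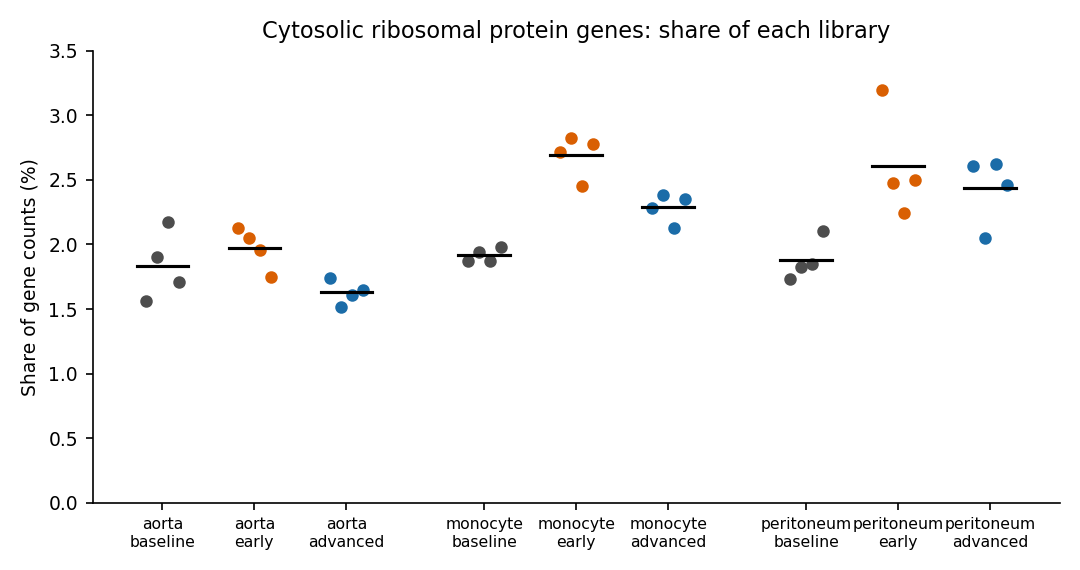
Share of all gene counts (percent, y axis) taken by the 80 cytosolic ribosomal protein genes in each of the 36 libraries (points), by population and stage (x axis); bars are means of 4 libraries. The 3 monocyte stages do not overlap (1.87 to 1.98%, 2.45 to 2.83% and 2.13 to 2.39%), while the aortic libraries lie between 1.52 and 2.18%.

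The subunits were also compared with each other. The summed counts of 60S members were 1.45 to 1.5 times those of 40S members in monocytes at baseline, 1.42 to 1.45 times at the early stage and 1.42 to 1.45 times at the advanced stage. In the peritoneum the ratio was 1.37 to 1.41 at baseline, 1.36 to 1.49 at the early stage and 1.31 to 1.37 at the advanced stage, and over the aorta it ran from 1.26 to 1.74, both ends at baseline. Without Rn45s, the ribosomal RNA precursor that took 4.74 to 19.8% of counts, the monocyte shares still did not overlap between baseline (2.05 to 2.23%) and the early stage (2.83 to 3.27%).

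Levels differed widely between members. The 10 members with the highest mean level held 28.7% of the members' reads, and the median member had a mean of 249 CPM, which is counts per 1000000 counts of the library. Per kilobase of transcript, Rpl32 (1175 CPM per kb), Rplp1 (1130) and Rpl10 (854) were highest, and Rpl34 (5.93), Rps4l (6.23) and Rps27 (8.47) lowest. The mean level of Rps27 rested largely on a single aortic baseline library, at 58.7 CPM. Over the 80 members the order of mean CPM was close between populations, with a Spearman rho of 0.940 between monocytes and peritoneum, 0.953 between monocytes and aorta and 0.930 between peritoneum and aorta, where the points share gene length and the same counting. Ribosomal protein genes have many near-identical copies in the genome, and how reads that match several places were counted is not given in the sources used here. In 79 of the 80 members some 50-base stretches of the transcript also occurred in a transcript of another gene, in the median 52.8% of them, and in 45 members over 50%. The share was 98.6% for Rps27, 50.6% for Rpl34, 71.3% for Rpl26, which had no count, and 47.8% for Rpl30, with 16 counts. It was also 92.1% for Rpl10, which was among the 3 highest, and over all 80 members the share and the level per kb had a Spearman rho of 0.155. Levels of members that share sequence are therefore uncertain, and differences between genes more so than differences of a gene between groups.

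For the onset of disease, early monocytes were compared with baseline monocytes. 63 of the 78 members tested rose and none fell, against 5.74% of all 9465 genes tested that rose (edgeR's quasi-likelihood test, Benjamini-Hochberg adjusted p under 0.05 over all genes). The log2 fold change was above 0 for 77 of the 78, with a median of 0.56 (1.47-fold) against 0.00 for all genes. In 61 members every early library lay above every baseline library after TMM normalisation, which held for 7.44% of all genes. Both subunits took part, with 37 of 46 60S members and 26 of 32 40S members called and medians of 0.55 and 0.56. With counts thinned to the shallowest library, 59 of 77 members were called, where 3.97% of all genes rose.

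The stalk of the 60S subunit, the arm that recruits the elongation factors, did not rise evenly. Rplp1, one of its acidic proteins, was at 277, 283, 312 and 232 CPM in the 4 baseline monocyte libraries, 730, 792, 457 and 534 at the early stage and 385, 407, 357 and 378 at the advanced stage. The early libraries were the highest and the baseline ones the lowest, with no overlap among the 3 stages. Rplp1 rose 2.32-fold from baseline to early (log2 fold change 1.21 ± 0.14 SE, adjusted p = 0.000334). Rplp2, the other acidic protein, was at 170, 188, 158 and 174 CPM at baseline and 221, 236, 229 and 189 at the early stage, and rose by 0.37 ± 0.10 (adjusted p = 0.0268), with the lowest early library just above the highest baseline one. Rplp0, which anchors both to the ribosome, was at 737, 752, 643 and 852 CPM at baseline and 830, 885, 838 and 868 at the early stage. Those groups overlapped, and its log2 fold change of 0.22 ± 0.11 did not pass (adjusted p = 0.210).

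By the rule for naming, the largest rises were those of Rps4l (2.13), Rplp1, Rpl41 (1.12), Rpl36a (1.06), Rps29 (1.03) and Rpl22l1 (1.00). Rpl41, the smallest protein of the ribosome with a coding sequence of 75 bases in the annotation, was at 192, 174, 203 and 200 CPM at baseline and 444, 466, 304 and 436 at the early stage. Early library 3 was the lowest of its group and still stood above every baseline library. Rpl36a, a 60S protein, was at 54.9, 56.9, 63.6 and 50.2 CPM at baseline and 108, 129, 90.0 and 135 at the early stage. Rps29, a small zinc-binding protein of the 40S head, was at 44.6, 41.5, 79.1 and 68.6 CPM and then at 115, 124, 102 and 130. Neither gene's groups overlapped. Rpl22l1, a paralogue of Rpl22, was at 33.9, 33.2, 40.3 and 33.4 CPM at baseline and 88.7, 61.9, 56.0 and 70.4 at the early stage. Rps4l rested on few counts: it was at 2.99, 2.20, 1.62 and 0.972 CPM at baseline and 9.07, 10.9, 10.1 and 3.98 at the early stage.

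15 of the 78 members did not pass. Beside Rplp0 they included Rpl10, which joins the 60S subunit late in its assembly and lies by the catalytic centre, at 665, 678, 569 and 640 CPM at baseline and 625, 607, 764 and 658 at the early stage (log2 fold change 0.08 ± 0.10, adjusted p = 0.653). Rps14, a protein of the 40S platform, was at 235, 203, 178 and 276 and then 254, 275, 237 and 231 CPM (0.18 ± 0.13, adjusted p = 0.436). Rpsa, which doubles as the laminin receptor, was at 408, 448, 416 and 499 and then 537, 593, 489 and 546 CPM (0.31 ± 0.12, adjusted p = 0.108). For each of these 3 genes the libraries of the stages overlapped.

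Other genes of the translation apparatus were counted in the same comparison, where 5.74% of all genes rose and 5.08% fell. Fau, which encodes a 40S protein fused to a ubiquitin-like protein and lies outside the naming rule, rose (0.36 ± 0.10). Of 6 elongation factors 2 rose, Eef1b2 (0.59 ± 0.09) and Eef1d (0.48 ± 0.10), and of 27 initiation factors 3 rose. Among 39 ribosome assembly genes tested 2 rose, with a median log2 fold change of 0.11, and among 72 mitochondrial ribosomal protein genes 6 rose, with a median of 0.34. Of 15 growth regulators 2 fell: Larp1, which binds TOP messages (-0.48 ± 0.09, adjusted p = 0.00533), and Eif4ebp2, a repressor of cap-dependent translation (-0.39 ± 0.12, adjusted p = 0.0465).

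**Figure D2:**
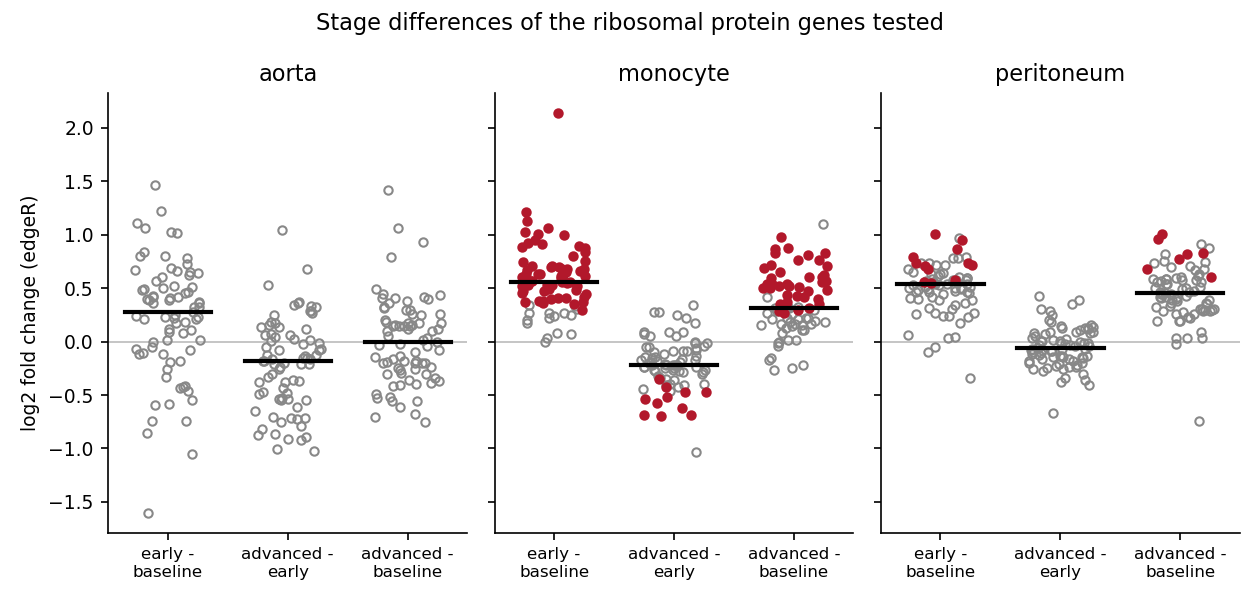
Log2 fold changes (y axis, edgeR) of the ribosomal protein genes tested in each stage comparison (x axis) within the aorta, monocytes and peritoneum; filled points have an adjusted p under 0.05, and bars are medians. In monocytes 63 of 78 rose from baseline to early and 11 fell from early to advanced, and in the aorta none of 77 passed.

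Markers of other blood cells moved with the same comparison. Of 8 neutrophil markers 6 rose and 1 fell, and their summed share went from 0.0485 to 0.105% of counts at baseline to 0.398 to 1.44% at the early stage. Of 7 T and NK cell markers 6 rose (from 0.00177 to 0.00519% up to 0.00573 to 0.0522%), of 4 B cell markers tested 3 rose (from 0.00141 to 0.00512% up to 0.00346 to 0.0156%), and of 9 genes induced by cell handling 4 rose. Both erythroid markers tested fell, to 0.00015 to 0.00075% of counts. Early library 3 had the lowest shares of neutrophil, T and B cell markers in its group and, with 2.45%, the lowest ribosomal protein share, which was still above all baseline libraries. The part of these markers in the rise was not tested.

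From the early to the advanced stage, 11 of the 78 members fell in monocytes and none rose, against 1.39% of all genes that fell. The median log2 fold change was -0.22 against 0.00 for all genes, and in 30 members every advanced library lay below every early one, as in 5.25% of all genes. The depths of these groups were 1588174 to 2259001 and 942899 to 1685481 counts. Rplp1 fell by 0.70 ± 0.14 (adjusted p = 0.0191), and Rpl27, Rpl36, Rpl12, Rpl13 and Rpl27a fell by 0.69, 0.69, 0.62, 0.57 and 0.54. Rpl13, a 60S protein, was at 409, 463, 375 and 402 CPM at the early stage and 271, 270, 266 and 283 at the advanced stage, which also lay below the 323, 337, 326 and 327 of baseline. Rpl12, at the base of the stalk, went from 273, 356, 218 and 297 CPM to 167, 199, 164 and 206. Both groups of each gene were apart. The count was 2 without the advanced library 1 or 3, 3 without advanced 2 or early 2, 7 without early 4 and 2 without the libraries set apart. In the last of these fits 0.495% of all genes fell. Rpl13 and Rpl27a passed whichever library was left out. Of the T and NK cell markers 5 of 7 fell, to 0.00182 to 0.00297% of counts, and their part was not tested.

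Against baseline, 40 of 78 members were still higher at the advanced stage in monocytes and none lower, against 9.23% of all genes that were higher. The median was 0.32. Rps29 (0.98 ± 0.19), Rpl41 (0.87 ± 0.12), Rpl36a (0.87 ± 0.14), Rps25 (0.83 ± 0.13), Rpl22l1 (0.83 ± 0.15) and Rpl5 (0.81 ± 0.15) had the largest differences. Rpl5, a partner of 5S RNA, was at 196, 179, 216 and 271 CPM at baseline, 355, 363, 306 and 417 at the early stage and 403, 425, 313 and 336 at the advanced stage, with baseline below both. Rpl11, which binds 5S RNA with it, was at 87.7, 80.6, 100 and 120 CPM, then 175, 195, 130 and 188, then 120, 130, 123 and 130. Neutrophil markers took 0.522 to 4.03% of counts in the advanced libraries, 7 of 8 being higher than at baseline, and their part was not tested. Without the libraries set apart 35 members passed, and with thinned counts 33 of 77, where 5.76 and 6.9% of all genes were higher.

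The peritoneum gave a similar median change but fewer calls. From baseline to early 12 of 78 members rose and none fell, against 1.41% of all 9575 genes that rose, and the median log2 fold change was 0.54 (1.45-fold) against 0.02 for all genes. The log2 fold change was above 0 for 75 of the 78, and in 19 members the early libraries all lay above the baseline ones, as in 3.57% of all genes. Those called were Rpl41 (1.01 ± 0.16), Rps7 (0.95 ± 0.17), Rpl9 (0.87 ± 0.21), Rplp1 (0.79 ± 0.15), Rpl19 (0.73 ± 0.18), Rpl38 (0.73 ± 0.17), Rpl10a, Rpl24, Rps12, Rpl13, Rpl8 and Rplp0, with adjusted p from 0.00993 to 0.0494. Rpl41 was at 199, 182, 190 and 231 CPM at baseline and 380, 404, 349 and 449 at the early stage, and Rplp1 at 511, 517, 534 and 445 and then 1015, 973, 657 and 754. Rplp0 went from 512, 551, 531 and 420 to 829, 717, 683 and 637 CPM. The groups of all 3 genes were apart.

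Baseline library 4 of the peritoneum differed from the others of its group in several members. Rps29 was at 53.5, 61.7, 57.4 and 181 CPM at baseline and 199, 110, 87.6 and 132 at the early stage, and Rpl36a at 63.3, 73.2, 70.9 and 141 and then 235, 142, 83.0 and 111. In both genes the fourth baseline library lay within the early range and the 3 others below it. The number of members called was 34 without baseline 4, 26 without early 3, 6 without early 2, 4 without early 1, 1 without baseline 1 and 0 without baseline 2 or 3. It was 9 without the libraries set apart, and 8 of 77 with counts thinned to the shallowest library. In those fits 0.74 and 0.938% of all genes rose. With other tools on the same libraries, DESeq2 called 40 members higher, where it called 4.68% of all genes higher, and limma-voom with quality weights 49, where it called 2.79%.

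Beside the members, 5 of 9 genes induced by cell handling rose in the early peritoneum, among them Jun (2.58 ± 0.37) and Ier2 (1.73 ± 0.26), from 0.0784 to 0.159% of counts at baseline to 0.124 to 0.491%. The monocyte markers Ccr2 (5.66 ± 0.94) and Plac8 (2.51 ± 0.59) rose as well, from 0.00910 to 0.0146% to 0.0136 to 0.165%, highest in early libraries 1 and 2. Peritoneal macrophage markers went from 1.75 to 2.17% down to 0.556 to 1.67%, with 0 of 7 called, and Lyve1, a marker of resident aortic macrophages, fell (-1.62 ± 0.32). Other macrophage genes went both ways and were not called. Mrc1 (1.82 ± 0.65), Folr2 (0.73 ± 0.54) and Cd163 (0.29 ± 0.56) were above 0, F13a1 (-0.76 ± 0.47) and Pf4 (-0.70 ± 0.34) below. T and NK cell markers went from 0.0001 to 0.00069% up to 0.00076 to 0.00598%, with Cd2, the 1 tested, higher, and B cell markers from 0.00029 to 0.00526% up to 0.00593 to 0.0069%, with 0 of 5 called. Early library 1 also had the highest ribosomal protein share, 3.20%, and the 2 other early libraries, 3 and 4, had 2.24 and 2.5%, above all baseline libraries. The part of all these markers in the rise was not tested. Of the translation lists, Fau (0.51 ± 0.11), Eef1b2 (0.58 ± 0.14) and Vim (0.69 ± 0.14), the last a TOP message, rose, and 0 of 72 mitochondrial ribosomal protein genes (median 0.40), 0 of 40 assembly genes (median 0.02) and 0 of 27 initiation factors passed with edgeR.

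Between the early and advanced stages 0 of the 78 members passed in the peritoneum, where 1.32% of all genes did so. With edgeR 5 members (6.41%) had an unadjusted p under 0.05, against 19.4% of all genes, DESeq2 and limma-voom called 0, and the median was -0.06 against -0.02. Against baseline 7 members were higher at the advanced stage, where 0.512% of all genes were, and 76 of 78 were above 0, with a median of 0.45 against 0.01. They included Rpl41 (1.01 ± 0.16), Rpl9 (0.96 ± 0.21), Rps21 (0.83 ± 0.13), Rps18 (0.81 ± 0.14), Rps15a (0.77 ± 0.16) and Rpl10a (0.67 ± 0.14). The count was 0 without baseline 1, baseline 2, advanced 3 or advanced 4, 2 without baseline 3, 3 without advanced 1, 14 without advanced 2 and 21 without baseline 4, and 38 without the libraries set apart (5.76% of all genes), which removes 2 early libraries only. With thinned counts 5 of 77 passed, where 0.263% of all genes were higher. DESeq2 called 29 higher, where it called 2.73% of all genes higher, and limma-voom with quality weights 64, where it called 9.44%. Peritoneal markers took 1.37 to 1.64% of counts in the advanced libraries, below all baseline libraries, with 0 of 7 called, and Lyve1 was lower (-2.14 ± 0.33). Mrc1 (-1.06), Folr2 (-1.65), Cd163 (-2.58) and Pf4 (-0.25) were also below 0 and F13a1 (0.58) above, none of them called. The part of these genes was not tested.

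In the aorta none of the 77 members tested passed with edgeR in any of the 3 stage comparisons. Of all 9920 genes, 0.373% passed between baseline and early, 0.0403% between early and advanced and 0.585% between baseline and advanced. At an unadjusted p under 0.05 there were 10, 10 and 1 of 77 members, against 10.2, 3.57 and 8.83% of all genes. With thinned counts 0 passed in each. DESeq2 called 0 in each, and limma-voom with quality weights called 0, 7 (all lower, against 0.857% of all genes lower) and 0. In 17 of the 77 members every advanced library lay below every early one, as in 340 of the 9920 genes, and in 0 members above, as in 513 genes. From baseline to early 4 members lay wholly above and 1 wholly below, as did 366 and 221 genes. Genes induced by cell handling took 0.488 to 1.26% of counts at baseline and 1.55 to 2.69% at the early stage, with 6 of 9 higher, and their part was not tested. The median log2 fold change was 0.28 from baseline to early, -0.18 from early to advanced and -0.0049 from baseline to advanced. Scaled by library totals, all genes moved by -0.12 in the first and -0.13 in the last of these comparisons. Fits of the aorta, monocytes and peritoneum gave biological coefficients of variation of 110, 19.1 and 21.2%. Within aortic groups the median member varied by a coefficient of variation of 43.1% at baseline, 23.5% at the early stage and 18.5% at the advanced stage, against 8.60 to 9.59% in the monocyte groups. Rplp2, for example, was at 47.3, 161, 174 and 3.86 CPM in the aortic baseline libraries and 121, 127, 103 and 104 at the early stage. Without the libraries set apart 1 of 78 members passed between baseline and early, where 1.04% of all genes did. It was Rpl23, chosen here after its value was seen.

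Monocytes and peritoneal macrophages share no library, and their early changes were set side by side. Their baseline libraries of the same number deviated together, however, with correlations of 0.134 to 0.227 in 4 of 4 pairs. Over the 78 members the log2 fold changes had a Pearson r of 0.31 and a Spearman rho of 0.62, given as a description since the genes share length, sequence and library preparation. Rps4l, at 2.13 in monocytes and -0.34 in the peritoneum, stood far from the others. The difference of the early responses was tested gene by gene over 10343 genes, of which 2.78% passed. 1 member did, Rps4l, with a response lower in the peritoneum by 2.45 ± 0.57 (adjusted p = 0.0202). It was at 7.02, 7.13, 5.58 and 8.52 CPM in the peritoneum at baseline and 3.88, 5.08, 7.62 and 5.83 at the early stage. The call of Rps4l was lost with limma-voom and with the replicate number as a block. It was also lost without the libraries set apart and without monocyte early 2 or peritoneum early 2. With counts thinned to the shallowest library Rps4l was not among the 77 members tested, of which 0 passed. For Rplp1 the difference was -0.40 ± 0.21 (adjusted p = 0.347) and for Rplp0 0.35 ± 0.16 (adjusted p = 0.283), which does not show that they responded alike.

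**Figure D3:**
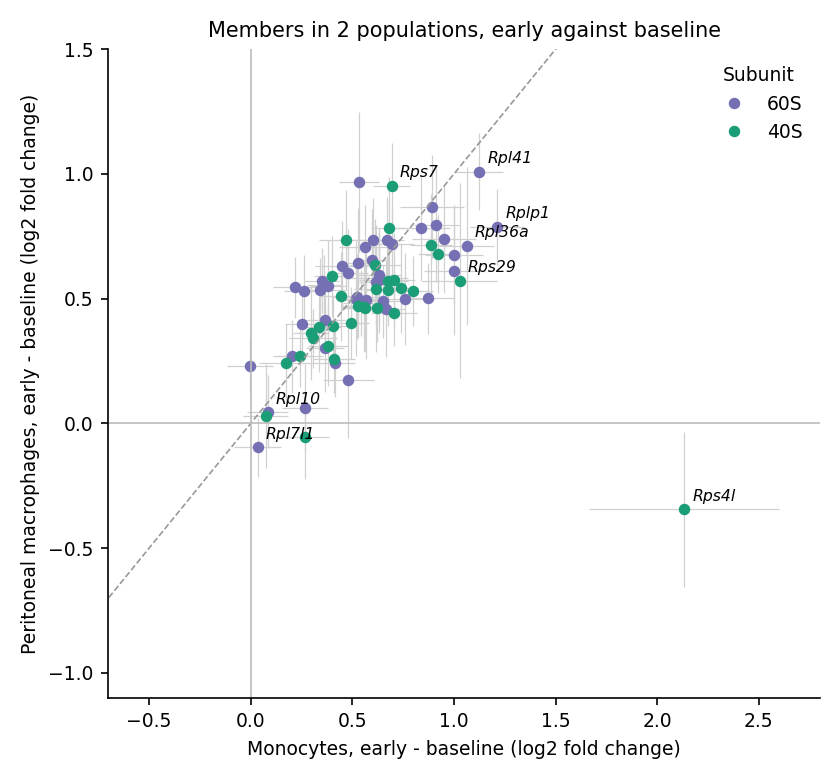
Log2 fold change from baseline to early in monocytes (x axis) and peritoneal macrophages (y axis) for the 78 members tested in both, with standard errors (grey), coloured by subunit; the dashed line marks equal change. Most members lie above 0 in both, and Rps4l is at 2.13 and -0.34.

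For the advanced responses 2.30% of all genes differed between the populations, and again 1 member, Rps14, with a response higher in the peritoneum by 0.95 ± 0.22 (adjusted p = 0.0216). It was at 180, 184, 206 and 175 CPM at baseline and 315, 185, 319 and 298 at the advanced stage in the peritoneum, where advanced library 2 lay among the baseline values and the 3 others above. In monocytes it was at 235, 203, 178 and 276 and then 170, 188, 174 and 191. The call was lost without monocyte advanced 3 or peritoneum advanced 1, and with thinned counts. Limma-voom with quality weights called 8 members, where it called 4.86% of all genes.

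Members with shorter coding sequences rose more from baseline to early in monocytes and in the peritoneum. In monocytes the Spearman rho between coding length and log2 fold change over 77 members was -0.42, and the median change was 0.63 for the 38 shorter and 0.41 for the 39 longer members. Over the 8910 other genes with a coding length it was -0.26. In the peritoneum the values were -0.33 for the members and -0.25 for 9026 other genes, and in the aorta -0.10 and -0.12. By transcript length the members did not exceed other genes, at -0.22 against -0.30 in monocytes and -0.23 against -0.29 in the peritoneum. From early to advanced, the rho of the members was -0.12 in monocytes and -0.02 in the peritoneum. The points share libraries and depth, and the part of length in the changes was not tested. By the pyrimidine run at the start, in monocytes the median early change was 0.56 for 27 members with a run and 0.62 for 31 without, and in the peritoneum 0.53 and 0.57. The share of sequence found in other genes had a rho of 0.04 with the change in monocytes and 0.13 in the peritoneum.

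**Figure D4:**
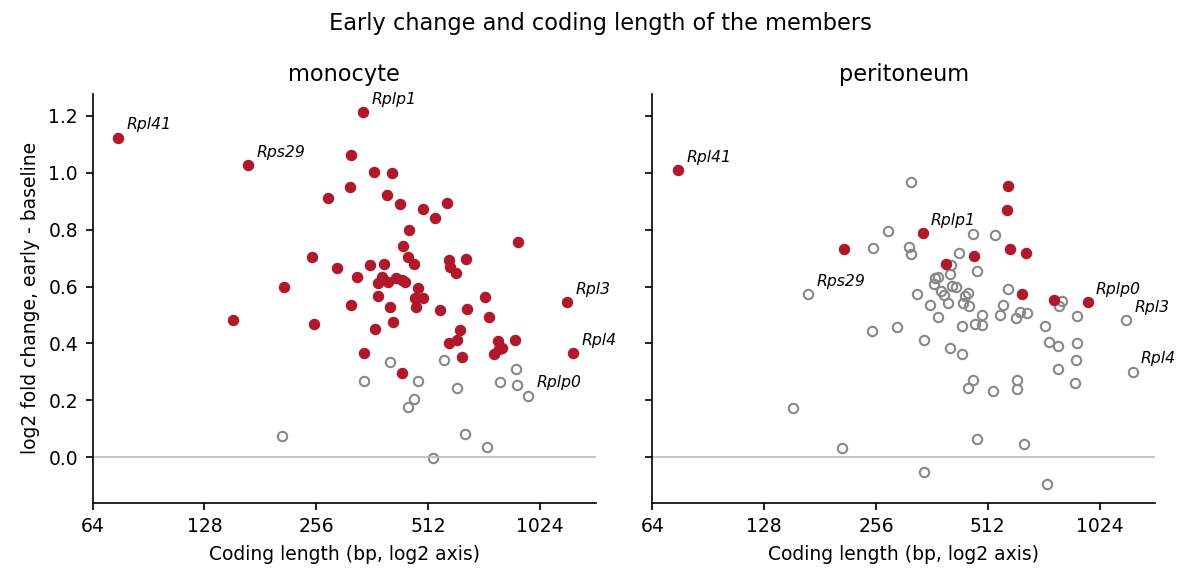
Log2 fold change from baseline to early (y axis) against coding length in bases (x axis, log2 scale) for the members in monocytes and in the peritoneum; filled points have an adjusted p under 0.05. Rpl41, with 75 coding bases, is at 1.12 and 1.01, and Rpl4, with 1257, at 0.37 and 0.30.

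The populations were compared with each other over all stages, each in a fit of their 24 libraries. Between peritoneal macrophages and monocytes 42 of 78 members were higher in the peritoneum and 9 lower, against 32.5% of 10343 genes that were higher and 34.6% that were lower. The median was 0.22 against -0.02 for all genes. Scaled by library totals, 21 were higher and 17 lower and the median was 0.02, but all genes moved as well, by -0.20, so that the median of the members stood 0.24 above that of all genes in both scalings. The larger differences upward included Rpl12 (1.06 ± 0.08), Rplp1 (0.95 ± 0.09), Rps2 (0.73 ± 0.07), Rps12 (0.72 ± 0.08) and Rpl5 (0.72 ± 0.10). Rps2, at the mRNA entry of the 40S subunit, ran from 184 to 291 CPM in monocytes (median 222) and from 253 to 440 in the peritoneum (median 322). Rpl12 ran from 128 to 356 CPM in monocytes (median 188) and from 278 to 468 in the peritoneum (median 367). Those lower in the peritoneum were led by Rpl36al (-0.45 ± 0.13), Rps9 (-0.39 ± 0.08), Rpl18 (-0.36 ± 0.08), Rpl19 (-0.33 ± 0.08), Rpl17 (-0.27 ± 0.11) and Rpl24 (-0.25 ± 0.09), and they also held Rplp0 (-0.18 ± 0.07, adjusted p = 0.0201). Within stages 28 were higher and 5 lower at baseline (30.2 and 29.1% of all genes), 11 and 0 at the early stage (15.2 and 13.7%) and 42 and 2 at the advanced stage (27.5 and 25.7%). The early count of 11 of 78 was thus close to the share of all genes.

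Within the stalk, Rplp0 and Rplp1 were set side by side in each population. Mean levels per kb of transcript were 572 CPM per kb for Rplp0 and 859 for Rplp1 in monocytes, 443 and 1391 in the peritoneum and 262 and 1139 in the aorta. In CPM, not divided by length, Rplp0 ran from 643 to 885 in monocytes (median 777), from 420 to 829 in the peritoneum (median 593) and from 237 to 484 in the aorta (median 356), so that every aortic library lay below every monocyte library. Rplp1 ran from 232 to 792 in monocytes (median 381), from 445 to 1015 in the peritoneum (median 692) and from 308 to 824 in the aorta (median 598).

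**Figure D5:**
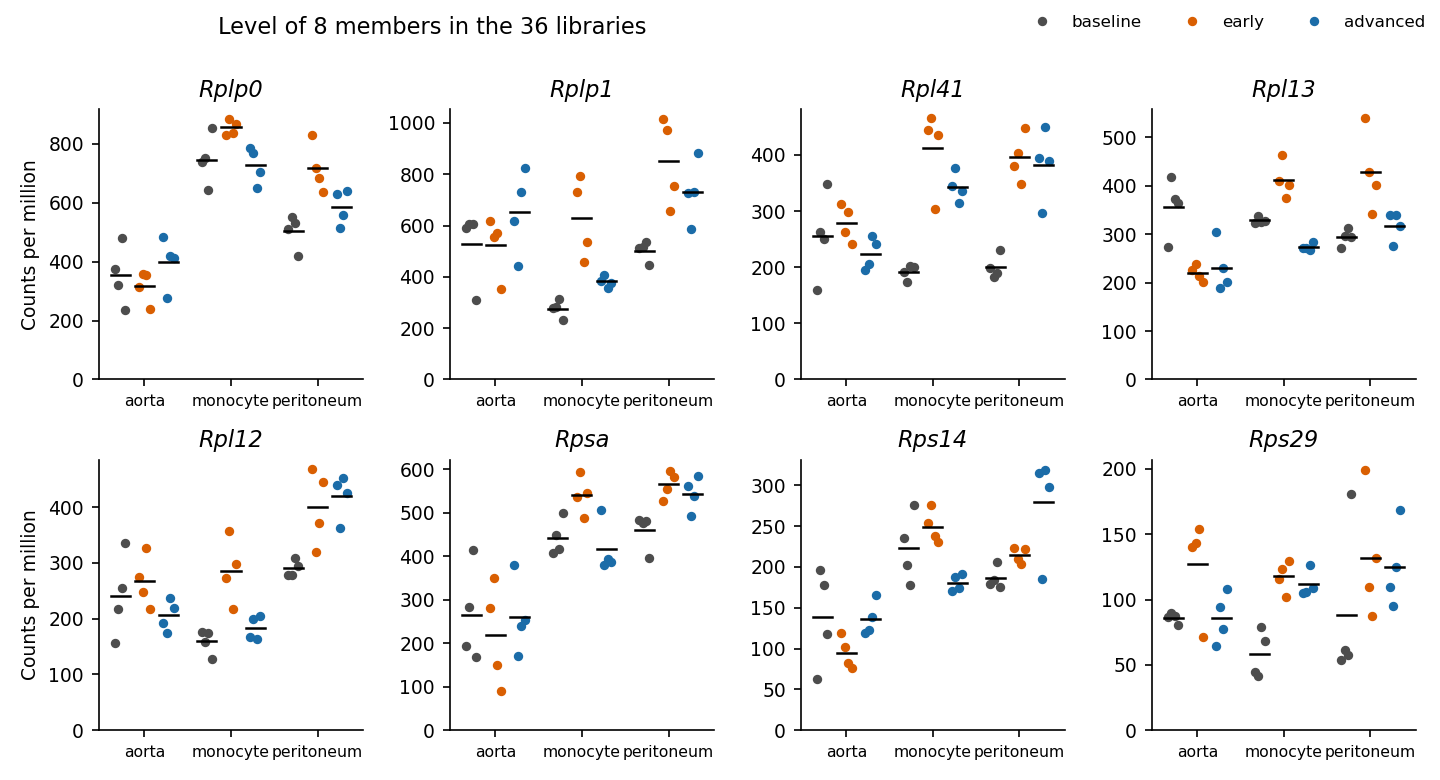
CPM (y axis, from 0) of 8 members in all 36 libraries, by population (x axis) and stage (colour), with bars at the means of 4 libraries. Rplp0 has its highest median in monocytes and its lowest in the aorta, while Rplp1 in baseline monocytes, at 232 to 312, lies below nearly all other libraries.

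Against monocytes, 28 of 78 members were lower in the aorta and 1 higher, against 15.7% of 10696 genes that were lower and 14.1% that were higher. The median was -0.35 against -0.12 for all genes. The lower members were led by Rplp0 (-1.13 ± 0.11, adjusted p = 4.48e-09), Rpl18 (-0.94 ± 0.16), Rpsa (-0.92 ± 0.17), Rplp2 (-0.84 ± 0.30), Rps14 (-0.82 ± 0.16) and Rps9 (-0.80 ± 0.11), and the higher one was Rplp1 (0.49 ± 0.13, adjusted p = 0.00333), which was at -0.11 among the early libraries alone. Within stages the calls were 1 lower and 1 higher at baseline, 16 and 1 at the early stage and 25 and 1 at the advanced stage, where 6.67, 7.12 and 12.3% of all genes were lower. Without the libraries set apart they were 41 and 2, where 20.9% of all genes were lower and 18.7% higher. The count was 19 without monocyte early 4 or monocyte advanced 1. Of the 7 members named here, 6 kept their call in all 24 fits that left a library out. Rplp2 kept it in 12, with adjusted p up to 0.0790.

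Against the peritoneum 35 of 78 members were lower in the aorta and none higher, against 11.9% of 10698 genes that were lower. The median was -0.41 against 0.01, and with RLE size factors all genes moved by -0.10 and 43 members were lower. Rpsa (-1.17 ± 0.17, adjusted p = 5.76e-06), Rps18 (-1.1 ± 0.21), Rpl10 (-1.05 ± 0.15), Rpl39 (-1.03 ± 0.22), Rps19 (-0.97 ± 0.22) and Rps14 (-0.96 ± 0.16) differed most. Rpsa ran from 91.2 to 414 CPM in the aorta (median 247), from 380 to 593 in monocytes (median 468) and from 396 to 596 in the peritoneum (median 532). Rpl10 ran from 195 to 649 (median 481), 569 to 764 (median 655) and 712 to 1068 (median 915), so that the aorta and the peritoneum did not overlap. At baseline 4 of 79 members were lower, at the early stage 18 of 78 and at the advanced stage 48 of 77, where 7.81, 4.53 and 11.4% of all genes were lower. Both aortic comparisons pool populations whose spread differs, with coefficients of variation of 78.6 and 78.7% in the fits. Of the mitochondrial ribosomal protein genes, 8 of 76 were lower against monocytes (median -0.48) and 7 of 77 against the peritoneum (median -0.40), with 0 and 1 higher, where 15.7 and 11.9% of all genes were lower.

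Members with a paralogue were read as the share of the pair. Rpl22l1 made up 16.1 to 22.3% of the pair with Rpl22 in baseline monocytes, 21.4 to 29.2% in early and 18.6 to 25.9% in advanced ones, and 22.1 to 28.1, 20.9 to 29.4 and 29.0 to 33.6% in the peritoneum. Rpl36al held 52.8 to 60.8% of the pair with Rpl36a in baseline monocytes and 32.0 to 38.2% in baseline peritoneum. Rps27l, known as a target of p53, held 90.1% or more of the pair with Rps27 in all monocyte and peritoneal libraries. In the aorta, baseline library 4 had 58.7 CPM of Rps27 and 0 of Rps27l, the reverse of the others, where Rps27 was at 0 to 2.33 CPM and Rps27l at 24.4 to 115. Nearly all of Rps27's sequence occurs in other transcripts, so the division between these genes is uncertain. Rpl7l1 held 5.49 to 11.7% of the pair with Rpl7 in monocytes and peritoneum. The testis-type copies were near 0: Rpl10l had 3 counts in all, Rpl39l at most 3.07% of the pair with Rpl39, and Rpl3l, which is typical of muscle, was at 0 in the aorta and peritoneum and at most 0.588% of the pair with Rpl3 in monocytes.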

How the data were processed

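RNA of sorted cells was sequenced as paired ends after Ovation SoLo library preparation, per the labels' protocols. The deposited files hold whole-number read counts for 24421 genes in each of 36 libraries, made by the authors with STAR, featureCounts and the mm10 build, per the submitters' processing notes. Their versions, and the treatment of strand and of reads that match several places, are not given in the sources used here.

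Counts were tested with edgeR 4.0.16 (R 4.3.3) by its quasi-likelihood test, two-sided, with TMM scaling, filterByExpr and Benjamini-Hochberg adjustment over all genes tested at 0.05. Stages were compared in fits of the 12 libraries of a population, and populations and responses in fits of 24. Printed CPM use library totals. DESeq2 1.42.0, limma 3.58.1 (voom), other scalings, thinned counts, filters and left-out libraries were alternatives. Replicate numbers, whose meaning the labels do not give, went with correlated deviations in 4 of 4 pairs of peritoneal and monocyte baseline libraries (0.134 to 0.227) and in no other pair of groups throughout. The scripts were tested on simulated counts. For aorta early against baseline, 0 of 72 genes changed 2-fold and 0 of 58 changed 4-fold were found. For the same stages, 36 of 55 genes changed 2-fold were found in monocytes and 52 of 77 in the peritoneum. The lack of calls in the aorta therefore does not show that its members were unchanged. The members and lists were chosen with earlier results of these data known. Genes named are the 6 members with the largest change in each direction among those called, the stalk proteins, members with known roles outside the ribosome, paralogue pairs and the highest and lowest levels. Some genes that this rule or the lists hold are not reported here.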

Additional observations from a re-analysis of the deposited data

Results flagged for a closer look

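Within the 225 groups of 4 libraries examined for members named above, 17 had a library far from the other 3, where chance alone gives about 1 in 20. In the aorta these were Rplp1 at 308 CPM and Rps27 at 58.7 in baseline library 4, Rpl39 at 278 in baseline 3 and Rps4l at 2.76 in baseline 2. At the early stage they were Rps29 at 71.6 and Rpl36a at 113 in library 4, and at the advanced stage Rpl39 at 46.6 and Rps4l at 14.9 in library 1. Monocytes had Rpl22l1 at 40.3 in baseline 3, Rps2 at 291 in early 2 and Rpsa at 506 in advanced 1.

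In the peritoneum 5 of these values were in baseline library 4: Rps29 at 181 CPM, Rpl36a at 141, Rpl5 at 425 and Rpl39 at 215 were the highest of their group, and Rpsa at 396 the lowest. Rps14 at 185 CPM was the lowest in advanced library 2. The responses of peritoneal macrophages and monocytes differed for Rps4l at the early stage, by -2.45 on the log2 scale, and for Rps14 at the advanced stage, by 0.95.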

How the results depend on the processing

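Of 145 counts of called members under alternative settings, 111 stayed within 1.5 times the reported count, as did 148 of 176 with a library left out. Of 1500 values of named genes, 1308 kept their call, 191 lost it and 1 reversed: Rplp1 in the aorta against monocytes, at -0.11 in the early libraries alone. The cause of these differences was not tested.

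From baseline to early in the peritoneum, the 12 calls became 7 with library totals, 40 with DESeq2, 49 with limma-voom and 2 in a fit of all 36 libraries. The 7 advanced against baseline became 3, 29, 64 and 0, and 38 without the libraries set apart. The fit of all 36 libraries called 0.823% of all genes higher from baseline to early and 0.00905% from baseline to advanced. In monocytes the fit of all 36 libraries, which takes in the spread of the aorta, gave 2 calls from baseline to early, 0 from early to advanced and 1 from baseline to advanced. It called 0.154, 0 and 0.299% of all genes there. From baseline to early, 41 of 78 members had an unadjusted p under 0.05 in that fit, against 3.95% of all genes. Early to advanced gave 2 without the libraries set apart. In the aorta that fit gave 15, 7 and 4 of 78 members, where it called 19.1, 2.9 and 16.4% of all genes. There limma-voom gave 7 from early to advanced (2.37% of all genes), and 1 passed from baseline to early without the libraries set apart (1.04%). Responses gave 0 early and 8 advanced with limma-voom (0.638 and 4.86% of all genes) and 2 advanced with DESeq2 (4.02%). They gave 0 and 0 with thinned counts (0.547 and 1.38%), and 0 early without the libraries set apart (0.41%). Between populations, baseline and early libraries alone gave 33 and 11 for peritoneum against monocytes, 2 and 17 for aorta against monocytes, and 4 and 18 for aorta against peritoneum.

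With each library left out in turn, counts ran from 50 to 69, 2 to 11 and 28 to 42 in monocytes (early against baseline, advanced against early, advanced against baseline), 0 to 34, 0 to 1 and 0 to 21 in the peritoneum and 0 to 0 in the aorta. They ran from 47 to 53 for peritoneum against monocytes, 19 to 33 for aorta against monocytes, 30 to 46 for aorta against peritoneum, and 0 to 1 and 0 to 2 for the responses.

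Same-numbered libraries deviated together (every correlation above 0.1) in the baseline libraries of peritoneum and monocytes, where the best match was the same number in 4 of 4. This held for no other pair of groups: over all 72 pairs 6 were above 0.1 (range -0.29 to 0.23). In those baseline libraries a replicate block, added after seeing the data, gave 42 of 80 members (32 higher, 10 lower) against 33 without it. Of all genes, 60.7% were called with the block and 59.2% without it, so both counts of members lay below the share of all genes. With the replicate number as a block in the other fits, 6 members fell from early to advanced in monocytes, 4 rose early and 3 were higher at the advanced stage in the peritoneum, and the early response gave 0. No other count moved by more than 1.5 times.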
